A study of Solanum lycopersicum with 4 samples.

Results

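Tomato leaves kept for 24 h at 10 °C were compared with leaves kept for 3 h at 10 °C, by RNA sequencing of 1 library a side. These are 2 of the 4 libraries in the series, chosen by their titles, and the comparison covered 13840 of the 26219 genes listed in any library. A gene was included when it was listed in all 4 libraries and its mean reached 5 CPM (counts per 1000000 reads after scaling of each library). The other libraries, taken at 0 h and 48 h, were used for scaling, for that filter and for setting the levels at 3 h and 24 h in their course.

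All 4 libraries came from Moneymaker, a tomato cultivar, and from the earliest pair of true leaves of 3-week-old seedlings. Seedlings grew at 25 °C in 100 µmol m-2 s-1 of light, while the 10 °C treatment was given in 40 µmol m-2 s-1, and the day had 12 h of light in both. The 3 h and 24 h leaves therefore shared temperature and light level and differed by 21 h in the cold, whereas the 0 h leaves are those of the start of the treatment. The hour of harvest and the number of plants behind a library were not given in the sources used here. By the nominal times in the titles, 0, 24 and 48 h fall at the same hour of the day and 3 h at another. Time in the cold and hour of the day therefore cannot be told apart between 3 h and 24 h. The same holds for genes whose 3 h level stands apart from the other times. In units of 1000000 reads (M), the 3 h library held 36.1 M and the 24 h library 35.7 M, beside 38.5 M for 0 h and 37.4 M for 48 h. Wherever 4 values of a gene or gene set are listed together below, they stand in order of time, for 0, 3, 24 and 48 h. With 1 library a side there is no replicate check, so every difference below is between these libraries, and the intervals cover counting error only. No product text in the files names a defining leaf marker, so the tissue label was not checked against markers. In leaf RNA, fewer cells of a type and less RNA per cell cannot be told apart.

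Tomato is a chilling-sensitive crop of warm climates. Chilling slows enzymes and transport while leaf pigments go on absorbing light, and leaves respond through calcium and hormone signals, transcription factors and changes in photosynthesis, membranes and sugars. Abscisic acid is a stress hormone whose level is set by synthesis from carotenoid precursors and by inactivation through hydroxylation, and many leaf transcripts also follow the circadian clock.

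Most genes had similar levels at the 2 times. Of the 13840 genes compared, 11392 (82.3%) lay within 2-fold, and the root mean square of the log2 ratio of 24 h to 3 h was 0.88. At least 4-fold higher levels at 24 h were found for 246 genes, 1.78% of the genes compared. At least 4-fold lower levels were found for 345 genes, 2.49%, so that 4.27% passed 4-fold in either direction. The split depended on scaling. With plain library totals in place of TMM (trimmed mean of M values) factors, the median log2 ratio of all genes moved to 0.25 and the counts became 365 higher and 248 lower, that is, 59.5% higher in place of 41.6%. Past 2-fold were 1140 higher genes (8.24%) and 1308 lower ones (9.45%). The 8-fold limit left 44 higher and 95 lower genes, the 16-fold limit 20 and 28, and the 32-fold limit 6 and 8.

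**Figure D1:**
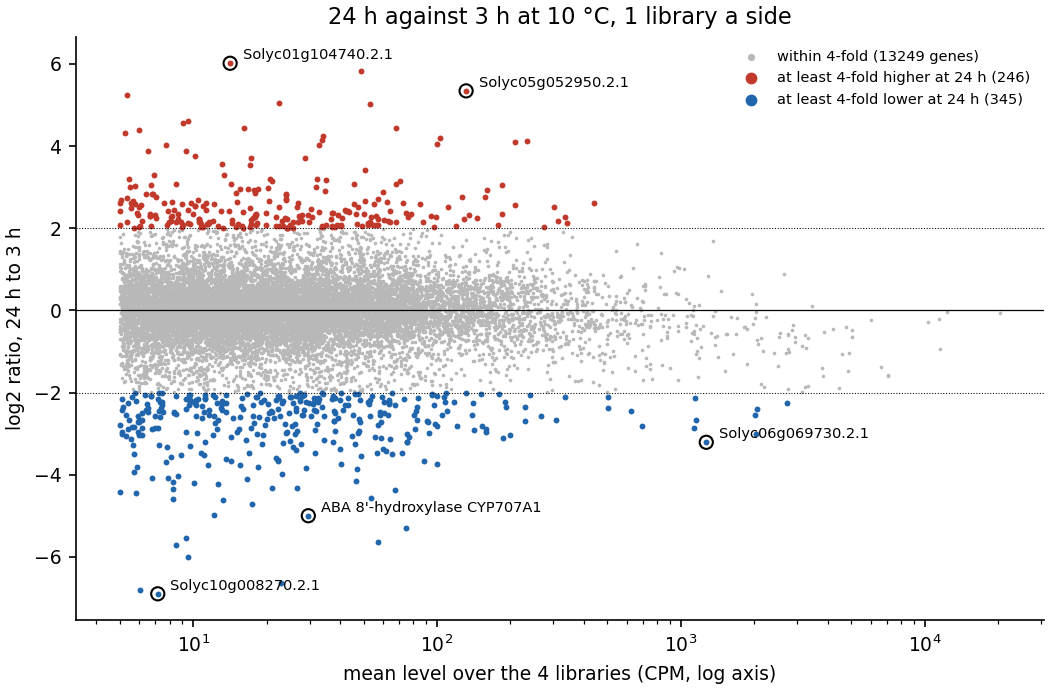
Log2 ratio of 24 h to 3 h (vertical axis) against mean level over the 4 libraries in CPM (horizontal axis, log scale) for each of the 13840 genes compared, with the 246 genes past 4-fold higher and the 345 past 4-fold lower in colour. Circles and labels mark 5 of the genes described in the text, and of the 50 genes with the highest levels 48 lie below 0.

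The 2 sets were chosen by their 3 h and 24 h levels, so the contrast in level and read share between those times follows from that choice. Levels at 0 h and 48 h entered only the scaling and the level filter. Genes higher at 24 h had a median of 6.42, 6.03, 36.1 and 31.8 CPM. They were thus low in the early pair of libraries and high in the late pair. Genes lower at 24 h had a median of 19.6, 47.8, 6.84 and 9.47 CPM, with 3 h the highest of the 4. Over all genes compared, the medians lay between 21.2 and 21.9 CPM. The higher set took 0.318%, 0.292%, 2.04% and 1.72% of reads. The lower set took 3.81%, 4.85%, 0.944% and 1.36% of reads, so the share it gave up between 3 h and 24 h exceeded the share the higher set gained. Reads covered most of the gene in the library with the higher level. Coverage there had a median of 98.2% of gene length for the higher set and 98.0% for the lower set, and 2 and 5 genes respectively had under 50%.

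The ratio of 48 h to 0 h shares no library with the ratio that chose these genes. It had the same direction in a larger share of the higher set than of the lower set. The 5 CPM limit, however, is a mean over all 4 libraries. A gene low at 0 h and 3 h could therefore enter through its 48 h level, which favours a high ratio of 48 h to 0 h in the higher set. In the higher set of 246 genes, 229 (93.1%) passed 2-fold higher at 48 h than at 0 h, as did 10.0% of all genes compared. The median of their log2 ratio of 48 h to 0 h was 2.18, with quartiles of 1.75 and 2.75, beside 0.00 for all genes, and 151 of them passed 4-fold, as 2.06% of all genes did. In either direction 3.35% of all genes passed 4-fold between 48 h and 0 h. A single gene of the higher set was at least 2-fold lower at 48 h than at 0 h. In the lower set of 345 genes, 180 (52.2%) were at least 2-fold lower at 48 h than at 0 h, where 8.48% of all genes were. Their median was -1.07, with quartiles of -1.99 and -0.20, and 86 passed 4-fold downwards, as 1.29% of all genes did. Another 17 of the lower set were at least 2-fold higher at 48 h than at 0 h. Once the 5 CPM limit was dropped, the median of this ratio was 2.08 for 441 higher genes and -1.02 for 556 lower ones. The shares past 2-fold were not computed for those genes. Across all 13840 genes the ratios of the 2 pairs of libraries had a Pearson r of 0.71 and a Spearman rho of 0.74, a description across genes, which are not independent replicates.

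**Figure D2:**
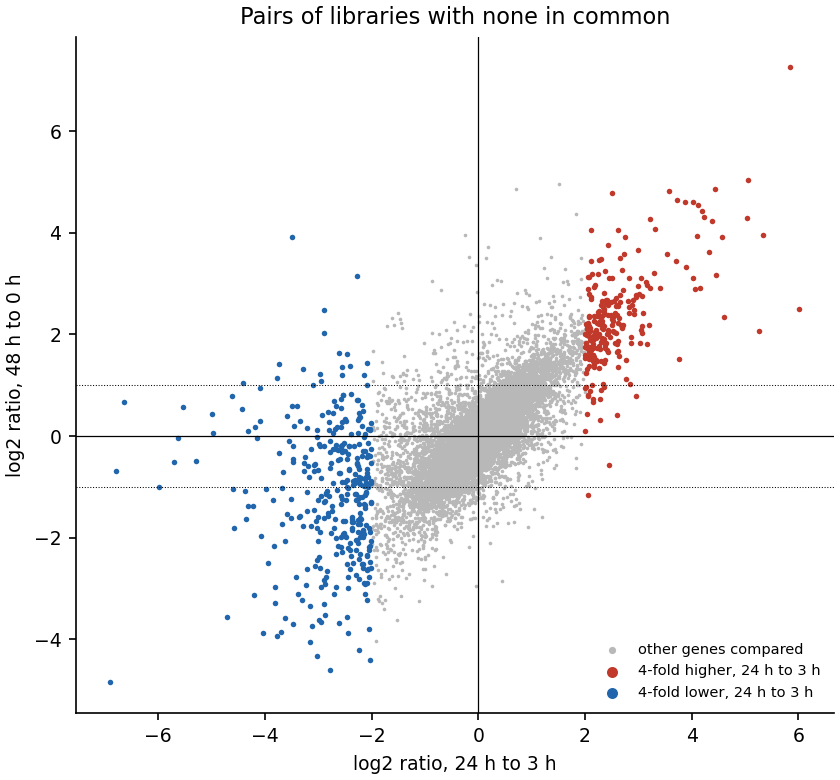
Log2 ratio of 48 h to 0 h (vertical axis) against log2 ratio of 24 h to 3 h (horizontal axis), 1 point per gene over 13840 genes, with genes at least 4-fold higher or lower at 24 h in colour. The 246 higher genes lie almost all above 0 on the vertical axis (median 2.18), while the 345 lower genes spread from well below 0 up to and past it (median -1.07).

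The lower set held a pair of courses of similar size, and the higher set held 1. For each gene the 0 h and the 48 h level were placed nearer to its 3 h or nearer to its 24 h level on the log2 scale. In the higher set, 223 of 246 genes (90.7%) had 0 h nearer 3 h and 48 h nearer 24 h. This course is a step that was kept at 48 h. A further 12 had both 0 h and 48 h nearer 24 h, 10 had both nearer 3 h, and 1 had 0 h nearer 24 h and 48 h nearer 3 h. In the lower set, 177 of 345 genes (51.3%) had the step. Both 0 h and 48 h were nearer 24 h in 156 (45.2%), so that 3 h stood above the other 3 times. Another 10 had both nearer 3 h and 2 had 0 h nearer 24 h and 48 h nearer 3 h. Among all genes compared, 54.6% had the step and 19.6% had both nearer 24 h. A further 19.6% had both nearer 3 h and 6.15% had the remaining course. The step was thus about as common in the lower set as among all genes, while both nearer 24 h was more common.

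These courses differ in level. The 177 lower genes with the step had medians of 31.7, 41.7, 6.26 and 8.22 CPM. They were high in both early libraries. The 156 lower genes with 0 h and 48 h nearer 24 h had medians of 10.7, 70.5, 8.71 and 10.1 CPM. The course was assigned from these same levels, so the contrast describes the sorting and was not tested. With plain library totals, 112 lower genes had the step and 123 had both nearer 24 h, so which course is the larger depends on the scaling. Of the 156 genes, 29 (18.6%) were at least 2-fold lower at 48 h than at 0 h, as 8.48% of all genes were. Another 16 (10.3%) were at least 2-fold higher, as 10.0% of all genes were.

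**Figure D3:**
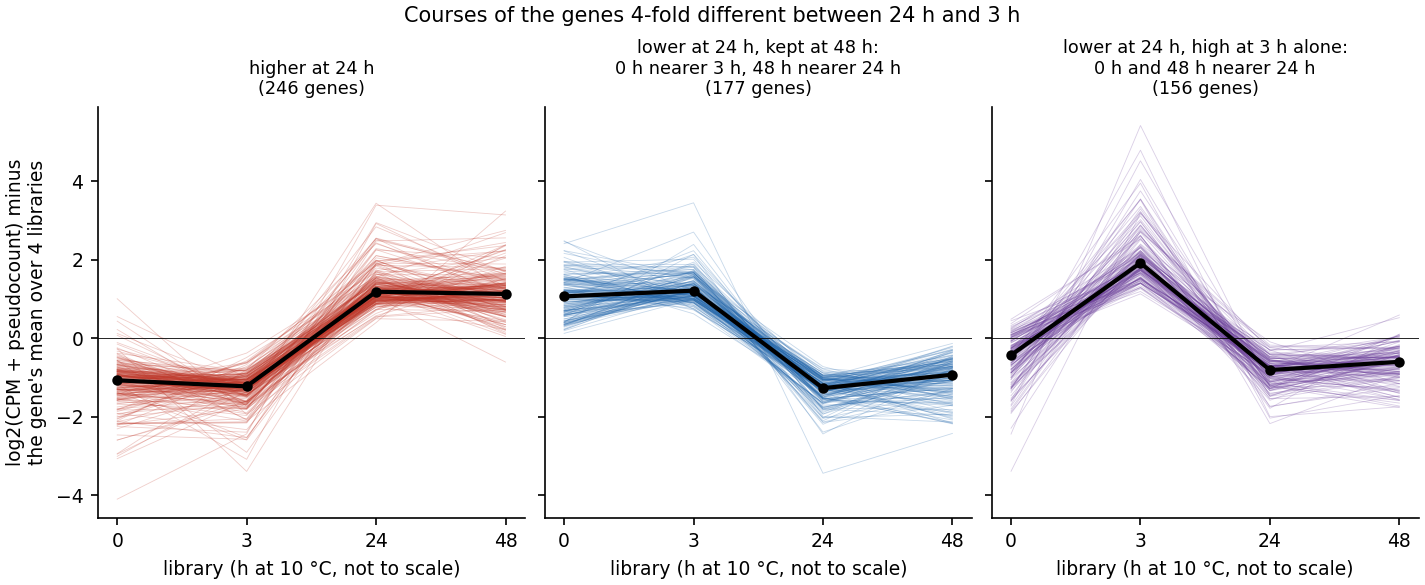
Level as log2(CPM + pseudocount) minus the mean of the gene over the 4 libraries (vertical axis) by library (horizontal axis, hours at 10 °C, not to scale), with 1 thin line per gene and a thick line joining the medians. The 246 higher genes mostly stay high in the 48 h library, and the 177 lower genes with the step are high in both early libraries. The 156 lower genes of the other course are highest at 3 h, with 0 h and 48 h nearer 24 h. The panel title names this course, and in some of its genes 0 h and 48 h differ.

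Product descriptions, which are the text of a sequence match kept in spare cells of the files, were found for 73 genes, of which 61 had a product and 41 of those passed the filter. The text covers mostly cytochrome P450 enzymes and receptor kinases, so these genes do not sample leaf functions evenly. For the 4 genes whose text stood in both the 3 h and the 24 h file the texts agreed, and 6 genes matched a tomato RefSeq symbol, 6 of 6 on the chromosome that the identifier gives. Of the 41 genes, 33 lay within 2-fold, 2 passed 2-fold upwards at 24 h and 6 downwards, where 82.3%, 8.24% and 9.45% of all genes did, and 1 of the 6 passed 4-fold, as 2.49% of all genes did. Their median log2 ratio was -0.14, beside 0.00 for all genes compared. With plain totals the median was 0.11 and 11 of the 41 changed sign.

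The described gene with the greatest difference was Solyc08g005610.2.1 on chromosome 8, annotated as ABA 8'-hydroxylase CYP707A1, the enzyme that inactivates abscisic acid. It had 132, 3460, 122 and 207 reads. In CPM these were 3.65, 107, 3.21 and 4.96, so 3 h stood far above the other times, which lay close together. From 3 h to 24 h the level differed 33.3-fold downwards (95% exact interval 27.8 to 40.2), and the log2 ratio was -5.00. The log2 ratio of 48 h to 0 h was 0.43. A second gene annotated as an ABA 8'-hydroxylase, Solyc08g075320.2.1, had 0, 16, 9 and 107 reads, and it was not compared, being absent from the 0 h list and under the level filter. Its highest count came at 48 h, whereas the CYP707A1 gene was highest at 3 h.

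Among the carotenoid genes with a description, zeaxanthin epoxidase alone passed 2-fold between 3 h and 24 h. Zeaxanthin epoxidase (Solyc02g090890.2.1, chromosome 2) converts zeaxanthin to violaxanthin, a step of the xanthophyll cycle and of the route to abscisic acid. It had 28140, 24302, 9999 and 12170 reads, high in the early pair and low in the late pair. The 24 h level was 2.85-fold below the 3 h level (2.79 to 2.92), and the log2 ratio of 48 h to 0 h was -1.42. The carotenoid hydroxylases described as cytochrome P450 97A29 (Solyc04g051190.2.1) and 97C11 (Solyc10g083790.1.1) had log2 ratios of 24 h to 3 h of 0.14 and -0.00. Stress enhanced protein 1 (Solyc01g107660.2.1), a chloroplast protein related to light-harvesting proteins, had 4801, 5022, 6343 and 7701 reads and a log2 ratio of 0.11. Like the hydroxylases, stress enhanced protein 1 lay within 2-fold.

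Among sterol genes, sterol 22-desaturase (CYP710A11, Solyc02g070580.1.1), which makes stigmasterol from sitosterol, had its lowest level at 3 h. It had 1801, 348, 844 and 764 reads. The 24 h level was 2.07-fold above the 3 h level (1.82 to 2.35), yet both late libraries lay below 0 h, with a log2 ratio of 48 h to 0 h of -1.44. The upstream sterol enzyme obtusifoliol 14alpha-demethylase (CYP51, Solyc01g008110.2.1) had 17833, 15035, 13036 and 21895 reads. Its log2 ratio of 24 h to 3 h was -0.44, within 2-fold. Geraniol 8-hydroxylase (Solyc02g065220.2.1), named for an enzyme of monoterpene oxidation, had 3037, 1598, 3089 and 3091 reads. Like the 22-desaturase it was lowest at 3 h, but its 24 h and 48 h levels were near that of 0 h, and its log2 ratio of 24 h to 3 h was 0.72.

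One P450 description, CYP71AT2v2, was carried by 6 genes, 5 on chromosome 9 and 1 on chromosome 11, and the 4 that passed the filter did not share a direction. The chromosome 11 gene (Solyc11g006590.1.1) had 1872, 4171, 1503 and 1947 reads, high at 3 h alone. Its log2 ratio of 24 h to 3 h was -1.70. Solyc09g092670.2.1 had 3826, 3061, 1357 and 1253 reads, high in the early pair, with a log2 ratio of -1.40. Solyc09g092640.2.1 had 339, 185, 182 and 309 reads and Solyc09g092620.2.1 had 139, 138, 244 and 257, with log2 ratios of -0.25 and 0.58. Genes with a shared description may hold near-identical sequence, and the counting of reads shared between them was not given in the sources used here. Grouped as P450 enzymes, by product text, RefSeq symbol or what the named protein is known to be, were 26 genes, of which 12 were compared. Of these 12, 8 lay within 2-fold, 1 passed it upwards and 3 downwards, where 82.3%, 8.24% and 9.45% of all genes did. Their median log2 ratio was -0.02, or 0.22 with plain totals, where 2 changed sign.

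Receptor and protein kinases, or proteins with leucine-rich repeats, made up 31 of the described genes. Of the 25 compared, 22 lay within 2-fold, 1 passed it upwards and 2 downwards, where 82.3%, 8.24% and 9.45% of all genes did, so the share within 2-fold was near that of all genes. Their median log2 ratio was -0.16, and with plain totals it was 0.09 and 7 changed sign. Hormone and development receptors were among those within 2-fold. A brassinosteroid receptor kinase (Solyc04g051510.1.1), which binds a growth steroid at the cell surface, had 3352, 4493, 3641 and 3994 reads and a log2 ratio of 24 h to 3 h of -0.53. Another gene described as a putative brassinosteroid receptor kinase (Solyc09g015520.2.1) had -0.00, and a kinase described as BRI1-like 2 (Solyc04g008430.1.1) had -0.04. The somatic embryogenesis receptor kinases, co-receptors for several such receptors, had log2 ratios of 0.23 (SERK1, Solyc04g072570.2.1), 0.62 (SERK3A, Solyc10g047140.1.1) and -0.20 (SERK3B, Solyc01g104970.2.1), and 3 of 3 lay within 2-fold. ERECTA (Solyc08g061560.2.1), a receptor known from Arabidopsis for organ shape and stomatal patterning, had -0.57, and the compared genes described as CLAVATA1, a receptor of shoot meristem size, had -0.14 (Solyc02g091840.2.1) and 0.11 (Solyc01g103530.2.1). Plain totals turned the sign of SERK3B (0.04), Solyc02g091840.2.1 (0.11), Solyc09g015520.2.1 (0.24) and Solyc04g008430.1.1 (0.20).

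The kinases past 2-fold included neighbours that differed in opposite directions. Solyc01g007990.2.1, described as a protein kinase, had 277, 251, 940 and 1116 reads, low in the early pair and high in the late pair. The 24 h level was 3.19-fold above that of 3 h (2.77 to 3.68), and the log2 ratio of 48 h to 0 h was 1.79. The gene before it in identifier order, Solyc01g007980.2.1, described as a putative protein kinase, had 629, 699, 358 and 361 reads, high early and low late. The 24 h level was 2.29-fold below that of 3 h (2.01 to 2.61), and the 48 h level was 2.01-fold below that of 0 h (1.76 to 2.30). With plain totals its log2 ratio of 24 h to 3 h was -0.94, within 2-fold. A pair on chromosome 2 described as FLS2-like, after the receptor that detects bacterial flagellin, also took different courses. Solyc02g070890.2.1 had 202, 673, 307 and 243 reads, highest at 3 h, with a log2 ratio of 24 h to 3 h of -1.35. Solyc02g070910.1.1 had 1405, 931, 619 and 729 reads, highest at 0 h, with -0.81.

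**Figure D4:**
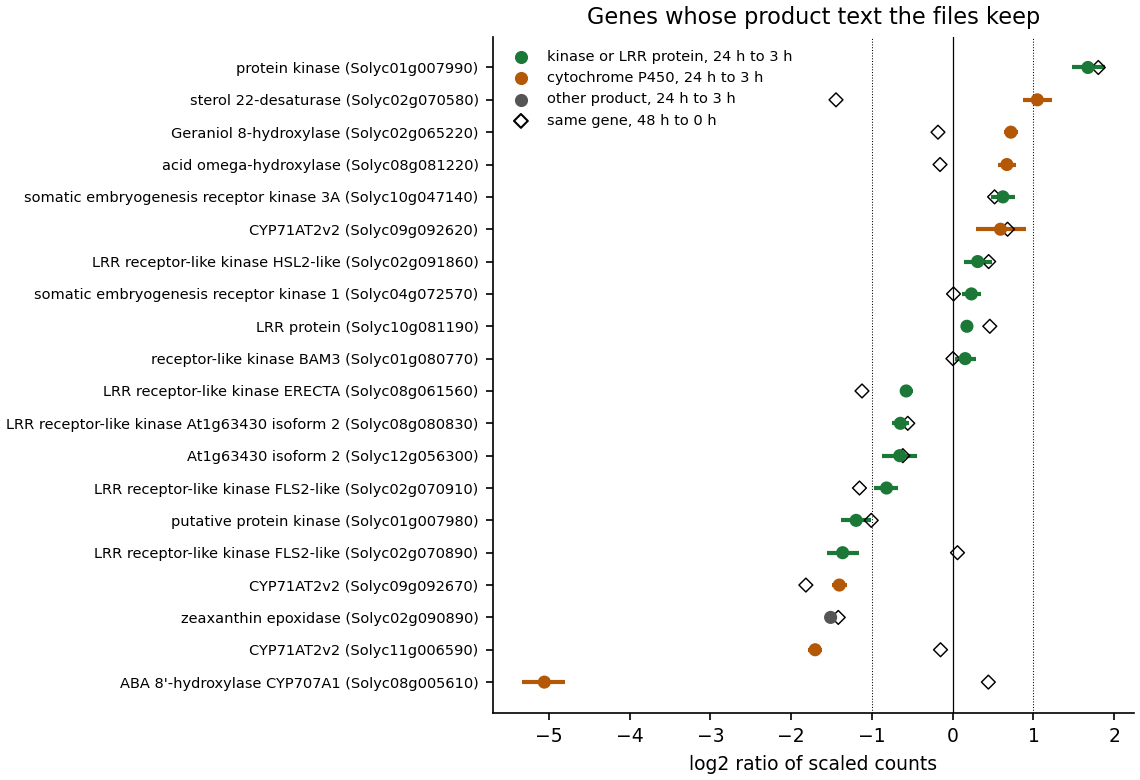
Log2 ratio of scaled counts, without a pseudocount, for the 10 described genes with the greatest and the 10 with the smallest ratio of 24 h to 3 h. Filled circles give 24 h to 3 h with exact 95% counting intervals, open diamonds give 48 h to 0 h from the other pair of libraries, and dotted lines mark 2-fold. The ABA 8'-hydroxylase gene lies far below all others at 24 h to 3 h and near 0 at 48 h to 0 h, while zeaxanthin epoxidase is low in both.

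The extreme genes of the whole comparison carried no description, and the 4 that follow are given by identifier. The largest ratio belonged to Solyc01g104740.2.1 on chromosome 1, with 81, 16, 1544 and 556 reads. It was 82.3-fold higher at 24 h than at 3 h (50.5 to 144), being lowest at 3 h and highest at 24 h. Its log2 ratio was 6.02, and with a pseudocount of 25 reads it was 5.14, under the 5.26 of the gene that follows. Among genes with a mean of at least 100 CPM, the largest ratio was that of Solyc05g052950.2.1 on chromosome 5, with 347, 281, 13607 and 6258 reads. It was 41.3-fold higher (36.7 to 46.6), low in the early pair and high in the late pair. At the other end, Solyc10g008270.2.1 on chromosome 10 had 334, 621, 1 and 8 reads. Its ratio of 3 h to 24 h was 728, with an interval of 130 to 28817 that is wide because it rests on 1 read at 24 h. Among genes of at least 100 CPM the smallest ratio was that of Solyc06g069730.2.1 on chromosome 6, with 86610, 67057, 8495 and 16397 reads. It was 9.26-fold lower at 24 h (9.05 to 9.47). Each of these 4 genes had 0 h nearer its 3 h level and 48 h nearer its 24 h level.

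Genes past 4-fold sometimes lay beside each other, in identifier order among the genes compared. In the higher set, 7 pairs of neighbours held 14 of the 246 genes (5.69%), with no longer run. In the lower set, runs held 48 of the 345 genes (13.9%). These were 18 pairs, 1 run of 3 genes on chromosome 4, 1 of 4 on chromosome 12 and 1 of 5 on chromosome 2. Of all genes compared, 1.78% were in the higher set and 2.49% in the lower set. How many neighbours those shares alone would give was not tested.

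The chromosome 2 run held very abundant transcripts. Its 5 genes each had a length of 798 bases, and together they held 622343, 517795, 104631 and 162562 reads. This was 1.62%, 1.43%, 0.293% and 0.435% of reads, high in the early pair and low in the late pair. Their log2 ratios of 24 h to 3 h ran from -3.02 to -2.26, and those of 48 h to 0 h from -2.77 to -1.73. All 5 had the step. At 2-fold the run widened to 8 consecutive genes, with log2 ratios of 24 h to 3 h from -3.02 to -1.41, or up to -1.17 with plain totals. These 8 genes took 2.62% of reads at 3 h and 0.757% at 24 h, while the next longest lower run at 2-fold had 5 genes. The genes of equal length may share near-identical sequence, so how reads were divided among them is uncertain. The genes directly before and after the 5 had that same length, with 231410 and 156110 reads at 3 h. Reads may thus have been shared beyond the 5, and the sum over the 8 genes is firmer than the sum over the 5.

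**Figure D5:**
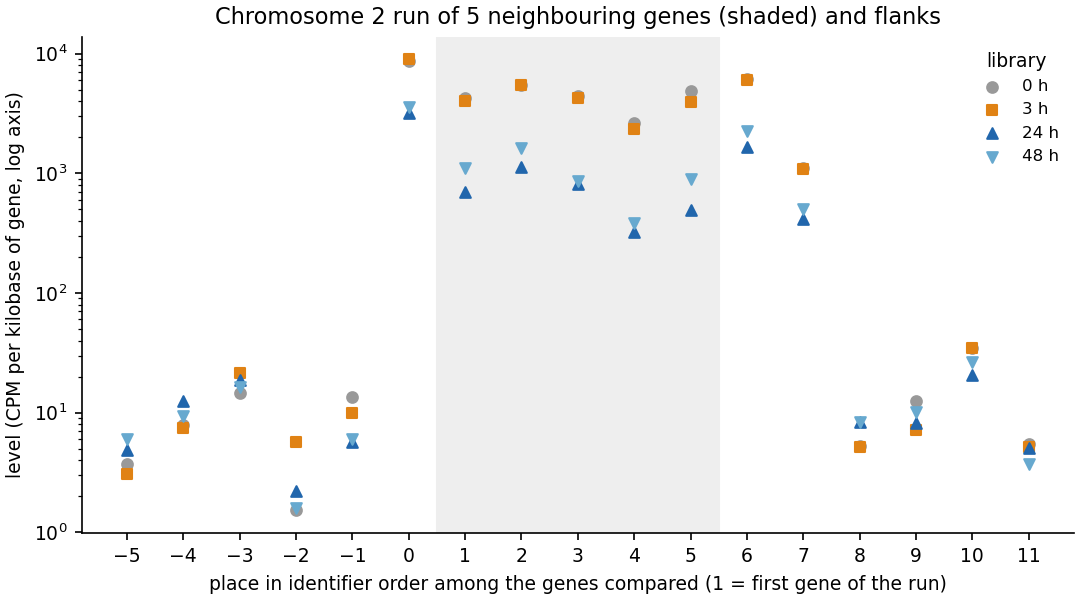
Level in CPM per kilobase of gene (log axis) in each library for the 5 neighbouring genes on chromosome 2 that were at least 4-fold lower at 24 h than at 3 h (shaded, places 1 to 5) and for genes on either side, in identifier order. Places 0, 6 and 7 complete the run of 8 genes at 2-fold: in all 8 the 0 h and 3 h points lie above the 24 h and 48 h points, while the other genes shown have far lower levels.

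The runs on chromosomes 4 and 12 took the other course. The 3 genes on chromosome 4 together had 339, 1965, 446 and 557 reads, and the 4 genes on chromosome 12 had 731, 2926, 340 and 427. Both runs were highest at 3 h, and each of their 7 genes had 0 h and 48 h nearer 24 h. Log2 ratios of 48 h to 0 h ran from 0.06 to 0.71 on chromosome 4 and from -1.25 to 0.11 on chromosome 12. On chromosome 12, the genes at -1.13 and -1.25 were thus also more than 2-fold lower at 48 h than at 0 h. Log2 ratios of 24 h to 3 h ran from -2.57 to -2.25 on chromosome 4 and from -6.80 to -2.31 on chromosome 12. The gene at -6.80 had 10, 767, 3 and 5 reads. Among higher genes, the longest run at 2-fold was 6 genes on chromosome 11, with log2 ratios from 1.06 to 1.56.

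The most abundant transcripts were mostly lower at 24 h. Of the 50 genes with the highest mean CPM, 48 were below their 3 h level. At least 2-fold lower were 20 of them, where 9.45% of all genes compared were. Past 2-fold upwards were 0, where 8.24% of all genes were. The median log2 ratio of these 50 genes was -0.81, beside 0.00 for all genes, and with plain totals it was -0.57, with 43 of 50 below 3 h. These 50 genes took 27.5%, 26.1%, 18.8% and 16.7% of reads, with the larger drop after 3 h. Over the 500 most abundant genes, 349 were below their 3 h level, with a median of -0.29, beside 0.00 for all genes. That value depended on scaling, since with plain totals 260 of 500 were below and the median was -0.05. Among the 1614 genes with a mean of at least 100 CPM, 23 passed 4-fold upwards (1.43%) and 38 downwards (2.35%), shares close to those of all genes compared.

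Genes past 4-fold came from every chromosome. The share past 4-fold upwards ran from 1.08% on chromosome 12 to 2.92% on chromosome 3 (42 of 1439 genes), and the share past it downwards from 1.69% on chromosome 9 to 3.28% on chromosome 4. Chromosome 9 was the 1 of 12 with more higher genes (29) than lower genes (17), though with plain totals 10 of 12 had more higher genes. By gene length, the share past 4-fold downwards in groups of 2768 genes from shortest to longest was 3.11%, 2.06%, 3.03%, 2.31% and 1.95%, with no steady trend.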

How the data were processed

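The deposited files hold, per the file headers, a count of unique reads, a gene length in bases (other), a coverage percent and an RPKM value for each gene with at least 1 read. The authors' RPKM uses plain library totals and was not used for ratios. The coverage percent made by the authors was used as deposited. The aligner, counting tool, strand setting, build and annotation were not given in the sources used here. Identifiers give chromosome and order.

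The deposited counts were scaled with TMM factors over the 4 libraries (edgeR 4.0.16, R 4.3.3, used for scaling only), which were 0.897 at 3 h and 1.06 at 24 h. Log2 ratios are differences of log2(CPM + 0.135), a pseudocount of 5 reads at the mean library, which understates changes of low genes. Fold values omit it and carry exact Clopper-Pearson intervals (95%). At 5 CPM a library has about 185 reads. Counting intervals assume independent reads.

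Named genes are the largest and smallest ratio overall and among genes of at least 100 CPM, plus the 10 largest and 10 smallest with a product. Others with a product were named for their pathway after their values were seen. Lists by product words had 0 members in the text, and the P450 and kinase groups were formed after the text was read, with short or cut-off texts (such as ERL2-like) placed by what the named protein is known to be. None of the 41476 genes in the RefSeq table (assembly SLM_r2.1) carried these identifiers, so symbols came from protein accessions in the text. Members and lists were chosen with earlier results of these data known. The computation was tested on simulated data. Alternatives were DESeq2 1.42.0 size factors, plain totals, TMM over the 3 h and 24 h libraries, other pseudocounts, filters and a 2-fold threshold.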

Additional observations from a re-analysis of the deposited data

Results flagged for a closer look

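Genes with reads in 1 of the 2 libraries and none in the other lay outside the comparison. For 172 genes there was no read at 3 h and more than 3 reads, the number that a count of 0 allows, at 24 h. None of these reached 50 reads, and the highest had 44. For 115 genes there was no read at 24 h and more than 3 at 3 h, and 7 of them had at least 50 reads. The highest of these lies on chromosome 3 and had 70, 241, 0 and 4 reads in order of time, with 87.9% of its length covered at 3 h. These counts have no replicate.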

How the results depend on the processing

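With 1 library per time, no replicate could be left out. No paired analysis was possible because each group holds 1 library. Plain library totals turned the split of called genes from 246 higher and 345 lower to 365 and 248. They also turned the median of the 41 described genes from -0.14 to 0.11, with 11 signs changed. The same totals moved the median log2 ratio of 48 h to 0 h of the lower genes to -0.79. Lower genes with the step moved to 112 from 177, and those with 0 h and 48 h nearer 24 h to 123 from 156. Those with 0 h nearer 24 h and 48 h nearer 3 h moved to 5 from 2. Without a filter on low counts, 441 genes were higher and 556 lower. At a mean of at least 20 CPM, 125 were higher and 192 lower. At 2-fold, 1140 were higher and 1308 lower, and the median log2 ratio of 48 h to 0 h of the higher genes was 1.37. DESeq2 size factors gave 247 higher and 344 lower, TMM over the 2 libraries 243 and 343, a pseudocount of 0.5 reads 251 and 352, one of 25 reads 206 and 316, and genes absent from a file taken as 0 gave 246 and 345. Courses were not run with TMM over the 2 libraries, which gives no factor for 0 h and 48 h. None of the 24 genes named by the rule changed sign. With plain totals, however, the log2 ratio of 22 of them lay outside the counting interval found with TMM factors. Zeaxanthin epoxidase went from -1.51 to -1.27 and Solyc06g069730.2.1 from -3.21 to -2.96, so the intervals do not cover the choice of scaling. Depth limits genes near 1 read, such as the gene with 1 read at 24 h.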
